A study of Mus musculus with 8 samples.

Results

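Chromosome 12 of the mouse was examined through every array probe annotated to it, 10239 probes from 10351 spots, out of 232626 probes in all. The chromosome was chosen by its mean level in these same arrays, which was low in tumours 1 and 5, so its level is given as a description and its low level supports nothing further. The probes lay over 114.8 Mb (chr12:3013769-117798928, in the array's own annotation, with the genome build not given in the sources used here), with a median spacing of 7.79 kb. A gene or transcript name was attached to 68.1% of them, 939 names in all.

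The study measured DNA copy number by 2-colour array comparative genomic hybridisation (array CGH) to ask whether liver cancers of FEAT transgenic mice carry gains and losses of DNA. The tested samples were 6 hepatocellular carcinomas (HCC) of FEAT transgenic mice aged 16, 21, 20, 18.5, 22 and 12 months (tumours 1 to 6), 1 normal liver of a FEAT transgenic mouse aged 13 months and 1 normal liver of a wild-type mouse aged 6 months. All were male C57BL/6 mice, and each array set its sample against normal liver DNA of a male wild-type C57BL/6 mouse aged 6 months. Per the labels, tumour 1 came from a liver with tumours in both the right and left lobes, tumour 4 from an animal with lung metastasis, and tumours 5 and 6 were localised in the liver. FEAT is a name of Mettl13, a methyltransferase gene. The promoter that drives the transgene and the share of tumour cells in each piece of tissue are not stated in the labels. Each sample is 1 animal, both kinds of non-tumour liver have 1 array, and 5 of 6 tumours came from older mice than either non-tumour liver, so that age and tumour cannot be told apart for those animals.

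In array CGH, tumour and reference DNA carry different dyes and compete for the same oligonucleotide probes, so that a region with fewer copies in the tumour gives a lower ratio. Loss of a whole chromosome lowers all of its probes by the same step, whereas a partial loss leaves a breakpoint inside the chromosome. Mouse chromosome 12 holds the immunoglobulin heavy chain locus near its distal end, the imprinted Dlk1-Dio3 domain, the growth genes Mycn and Akt1, the miRNA-processing gene Dicer1 and the hepatocyte gene Apob. Values below are log2 ratios of sample over reference after centring of each array on the median of its autosomal probes. If all cells lost 1 of 2 copies the log2 ratio would be -1, before any compression by the array. Fewer cells with a loss and a smaller loss per cell cannot be told apart in pieces of whole tissue.

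Probes of the short segments called gained in tumours are shown by sequence, because neighbouring probes at these places stood far apart on the same array. For Six6os1 and Ncoa1, 3 neighbouring probes each are printed, read from the scanner file in the orientation it gives, without capitals because no motif in them was examined. The first group lies within Six6os1, annotated as an opposite-strand transcript of Six6 (current name 4930447C04Rik), at chr12:70849288-70849347, chr12:70853759-70853818 and chr12:70860554-70860613. The second lies within Ncoa1, a nuclear receptor coactivator gene, at chr12:4189959-4190018, chr12:4204393-4204451 and chr12:4209288-4209347.
Six6os1 probe 3: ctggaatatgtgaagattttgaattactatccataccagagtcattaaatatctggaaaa
Six6os1 probe 4: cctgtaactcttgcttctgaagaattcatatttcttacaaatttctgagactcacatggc
Six6os1 probe 5: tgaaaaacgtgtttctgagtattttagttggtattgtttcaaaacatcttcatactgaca
Ncoa1 probe 2: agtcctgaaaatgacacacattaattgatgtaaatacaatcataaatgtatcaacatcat
Ncoa1 probe 3: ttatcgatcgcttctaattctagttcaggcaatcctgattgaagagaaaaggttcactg
Ncoa1 probe 4: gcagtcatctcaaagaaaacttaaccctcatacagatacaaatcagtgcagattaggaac

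Depth has no counterpart on arrays, and precision is limited by having 8 arrays. The probe noise, an SD taken from differences between neighbouring autosomal probes, was 0.22 to 0.49 in the tumours and highest in tumour 4, against 0.32 in FEAT normal liver and 0.22 in wild-type liver. Between 57 and 146 chromosome 12 probes had no value on a tumour array, against 48 in FEAT normal liver and 120 in wild-type liver. On the wild-type array, the only one whose scanner file was used, 37 of the probes were not well above background. In the FEAT normal liver, 244 of the 10351 chromosome 12 spots (2.36%) held 1 identical value, and in tumour 3, 11 spots did. No other array had a value shared by more than 100 spots. How these identical values arose was not tested. Without them the chromosome 12 mean was 0.00 in FEAT normal liver and 0.04 in tumour 3, against 0.01 and 0.04 with them.

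The whole chromosome was lowest in tumour 1, lower than in the non-tumour livers also in tumours 5 and 4, and near the level of the other autosomes in tumours 2, 3 and 6. The mean over its probes was -0.21, 0.02, 0.04, -0.05, -0.11 and 0.00 in tumours 1 to 6, against 0.01 in FEAT normal liver and 0.02 in wild-type liver. The tumour values thus fell on both sides of the non-tumour values, and the tumour mean was -0.05 ± 0.09 (SD, n = 6). On a linear scale the chromosome stood at 0.863 of the reference in tumour 1, 0.928 in tumour 5 and 0.963 in tumour 4. Medians over probes were at or below the means in all 8 arrays, at -0.24, 0.00, -0.01, -0.09, -0.13 and 0.00 in tumours 1 to 6, against 0.00 in both the FEAT normal and the wild-type liver.

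The shift in tumours 1 and 5 belonged to most probes and not to a few. Of the chromosome 12 probes, 79.1%, 49.6%, 51.0%, 57.1%, 71.2% and 50.4% lay below 0 in tumours 1 to 6, against 49.8% in FEAT normal liver and 50.3% in wild-type liver. By the centring, the autosomal probes of each array lie equally above and below 0. Tumours 1, 5 and 4 stood apart from the other 5 arrays in this share. Chromosome 12 had rank 2 from the lowest of 19 autosomes in tumours 1 and 4 and rank 4 in tumour 5. Its rank was 10, 5 and 12 in tumours 2, 3 and 6, against 14 in FEAT normal liver and 5 in wild-type liver. The mean of chromosome 12 over the 6 tumours was the lowest of the 19. The mice of tumours 1 and 5 were 16 and 22 months old, and that of tumour 2, where the chromosome stood at 0.02, was 21 months old. In tumour 4 the sign depended on the centring: its mean was -0.05 with the median as zero and 0.02 with the mode of the autosomal probes as zero.

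**Figure D1:**
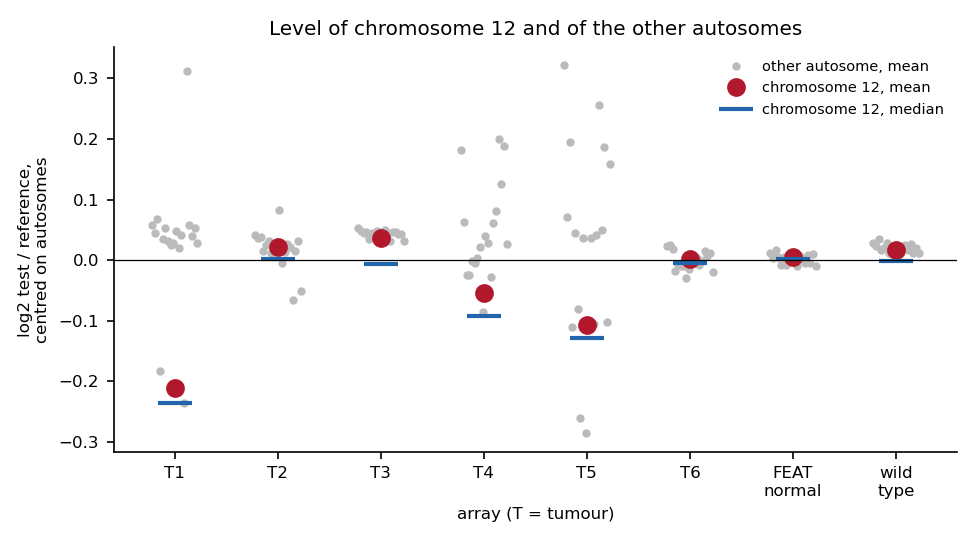
Mean (red points) and median (blue bars) log2 ratio of the chromosome 12 probes in each array, with the means of the other 18 autosomes in grey. T1 to T6 are tumours 1 to 6. Chromosome 12 stands at -0.21 in tumour 1 and -0.11 in tumour 5 and close to the other autosomes in tumours 2, 3 and 6 and in both non-tumour livers.

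Chromosomes 4 and 14 were also low in tumour 1. Chromosome 4 had means of -0.18, 0.02, 0.05, -0.02, -0.11 and -0.02 in tumours 1 to 6, against 0.00 in FEAT normal liver and 0.02 in wild-type liver. Chromosome 14 had -0.24, 0.03, 0.03, 0.06, 0.04 and -0.01, against 0.00 and 0.03 in the same non-tumour livers. Chromosomes 12 and 4 were therefore low together in tumours 1 and 5, while chromosome 14 was low in tumour 1 without tumour 5. In tumour 5 the low level was not particular to chromosomes 12 and 4. Chromosomes 9 and 7 stood at -0.29 and -0.26 there, chromosomes 13, 10 and 18 at -0.11, -0.10 and -0.10, and chromosome 6 at -0.08. In tumour 1 these further chromosomes lay between 0.03 and 0.05.

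Tumours were set against the 2 non-tumour livers as 1 group by limma, fitted over all 21 chromosomes, with the lone arrays of the non-tumour groups assumed to vary like the tumours. This contrast is the one by which the chromosome was chosen, so its result is descriptive. Chromosome 12 averaged -0.05 in tumours and 0.01 in non-tumour livers, a difference of -0.06 (SE 0.06, 95% interval -0.21 to 0.09, adjusted p = 0.810 in limma over 21 chromosomes), with 4 of 6 tumours, numbers 1, 4, 5 and 6, below the non-tumour mean. The SD among tumours was larger than the difference. Without tumour 1 the difference was -0.03. Over 1 Mb bins with at least 20 probes, limma called 0 of 112 bins of the chromosome and 0 of 2523 bins in the genome (0%) at an adjusted p of 0.05. At an unadjusted p of 0.05 the counts were 0 and 8. The difference was negative in 111 of the 112 bins and lay between -0.11 and 0.01, with a median of -0.06, against a median of 0.01 and 38.7% negative bins in the genome. Bins of 1 chromosome move together in a tumour that has lost it, so these are not independent counts.

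The next question was whether the low level ran along the whole chromosome. In 23 windows of 5 Mb counted from the first probe, tumour 1 stood between -0.25 and -0.12, with every window below -0.1 and 16 below -0.2. In tumour 5 the windows lay between -0.15 and -0.05, all below 0 and 12 below -0.1. In tumour 4 they spread from -0.14 to 0.08, with 18 below 0. No stretch of 5 Mb in tumours 1 or 5 returned to the level of the non-tumour livers, whose windows lay between -0.04 and 0.06 in each. Windows of tumours 2, 3 and 6 lay between -0.02 and 0.07, 0.00 and 0.07, and -0.05 and 0.05.

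The rise and fall along the chromosome was partly shared between arrays. Across the 23 windows, Pearson's r with wild-type liver was 0.67, 0.79, 0.30, 0.77, 0.80 and 0.42 in tumours 1 to 6. In FEAT normal liver it was 0.55. These values are given without a test because the windows share arrays, probes and base composition. Tumours 3 and 6 were the least like wild-type liver. The highest window was the one from 55 to 60 Mb in 8 of 8 arrays, and the lowest lay between 100 and 110 Mb in 7 of 8, with tumour 3 as the exception. At the highest window tumours 1 to 6 stood at -0.12, 0.07, 0.07, 0.08, -0.05 and 0.05, against 0.06 in FEAT normal liver and 0.06 in wild-type liver. In the window from 105 to 110 Mb they stood at -0.25, -0.02, 0.02, -0.13, -0.15 and -0.02, against -0.04 in both non-tumour livers. Tumours 1 and 5 lay below both non-tumour livers at both places.

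**Figure D2:**
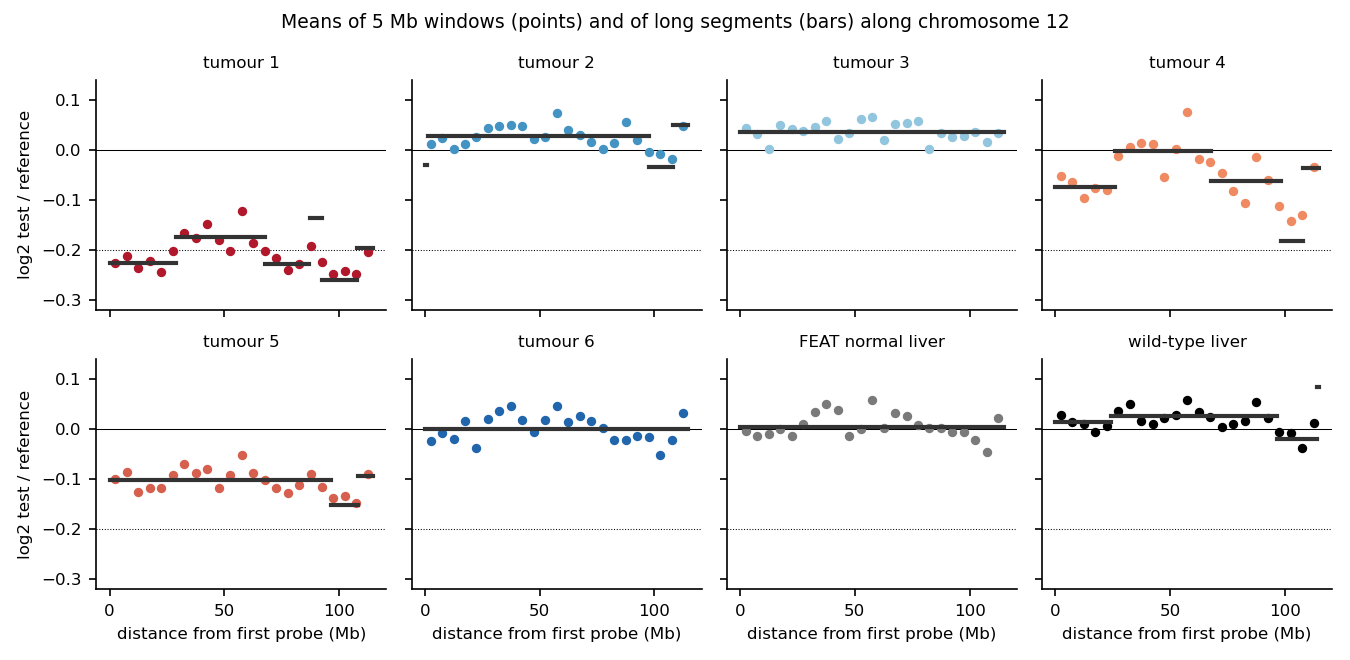
Means of 5 Mb windows (points) and of segments of at least 20 probes (bars) against the distance from the first probe of chromosome 12, one panel per array, with the calling threshold of -0.2 dotted. All windows of tumour 1 lie between -0.25 and -0.12 and all of tumour 5 between -0.15 and -0.05, and the wild-type liver has the same high window at 55 to 60 Mb.

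Evenness was expressed as the SD of the 23 window means. It was 0.033, 0.023, 0.018, 0.053, 0.023 and 0.027 in tumours 1 to 6, against 0.024 in FEAT normal liver and 0.022 in wild-type liver. The noise of single probes alone would give 0.013, 0.012, 0.016, 0.024, 0.011 and 0.018 in the tumours, against 0.016 and 0.011 in the non-tumour livers. The SD was thus above the value from probe noise in each array, but in tumour 3 the excess was small and was not tested. Tumour 4 was the least even, and tumours 2, 5 and 6 lay close to the non-tumour livers. As a median over the other autosomes, this SD was 0.034, 0.027, 0.020, 0.055, 0.024 and 0.027 in tumours 1 to 6. In FEAT normal liver it was 0.024 and in wild-type liver 0.020. Tumour 4 was thus the least even over the other autosomes as well, so its unevenness was not particular to chromosome 12. After the mean profile of the non-tumour livers was subtracted, the SD fell to 0.021 in tumour 1, 0.011 in tumour 2, 0.036 in tumour 4 and 0.012 in tumour 5, and was 0.020 in tumour 3.

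The level of a window went with the GC content of its probes. The chromosome as a whole had a mean probe GC content of 36.5%, against 36.6% over all autosomes. Across the 23 windows, Pearson's r of level and GC content was -0.81 in tumour 1, -0.84 in tumour 4 and -0.76 in tumour 5, against -0.68 in FEAT normal liver and -0.65 in wild-type liver. These correlations are across windows of 1 chromosome that share an array and are given without a test. The relation was negative on all arrays and weakest in tumour 3 (r = -0.38). In tumour 3 the GC-rich window from 15 to 20 Mb stood at 0.05, against a window median of 0.04. After a correction for GC content fitted on the autosomes, the SD of windows was 0.026 in tumour 1, 0.037 in tumour 4 and 0.018 in tumour 5, against 0.021 in FEAT normal liver and 0.017 in wild-type liver. The mean level of the chromosome was -0.21 in tumour 1, -0.06 in tumour 4 and -0.11 in tumour 5 after the correction, against -0.21, -0.05 and -0.11 before it.

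**Figure D3:**
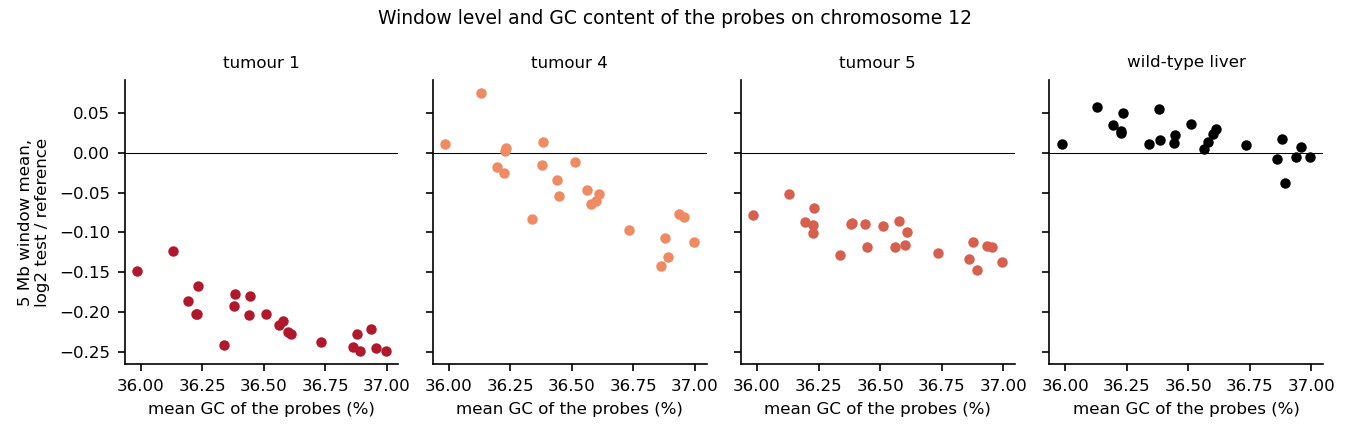
Mean log2 ratio of each 5 Mb window of chromosome 12 against the mean GC content of its probes in percent, for tumours 1, 4 and 5 and the wild-type liver. Each point is 1 of 23 windows. Windows of higher GC content lie lower in all 4 panels (r = -0.81, -0.84, -0.76 and -0.65), and the points of tumours 1 and 5 lie below those of the wild-type liver at the same GC content.

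Segments were then called on each array alone at a mean at or beyond 0.2 in either direction, with no test since each array is 1 animal. In tumour 1, 6052 of 10093 measured probes (60.0%) lay in 3 lost segments over 63.3 Mb, against 9.2% of all autosomal probes of that array in lost segments. In the other 5 tumours and both non-tumour livers, 0 chromosome 12 probes lay in lost segments. Over all autosomes the share in lost segments was 0.0225%, 0.0242%, 0.656%, 11.6% and 0.0495% in tumours 2 to 6. It was 0.047% in FEAT normal liver and 0.00506% in wild-type liver. The lost segments of tumour 1 ran over chr12:3013769-31975909 at -0.23, chr12:70876989-90061938 at -0.23 and chr12:95722011-110919102 at -0.26. The long stretches between them stood at -0.17 and -0.14, and the one distal to the last of them at -0.20, so that the threshold of 0.2 divided a chromosome that was low over all its long segments. At a threshold of 0.1 the called share of tumour 1 was 100%. At 0.3 it was 0.0594%, which is the 6 gained probes at Six6os1, with no lost segment. For tumour 5 the called share was 93.4% at 0.1 and 0% at 0.2. The share of all autosomal probes is not given at 0.1 or 0.3, so the shares there cannot be set against the genome.

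The number of breakpoints inside the chromosome was 6, 4, 0, 5, 2 and 0 in tumours 1 to 6, against 0 in FEAT normal liver and 4 in wild-type liver. The count in wild-type liver, which was set against DNA of its own strain, was as high as in tumour 2 and higher than in tumours 3, 5 and 6. Between segments of at least 20 probes alone, the counts were 4, 2, 0, 3, 2 and 0 in tumours 1 to 6, against 0 in FEAT normal liver and 2 in wild-type liver. The wild-type count then equalled those of tumours 2 and 5. Steps between segments of at least 20 probes were small, between -0.12 and 0.09 in tumour 1 and -0.05 and 0.06 in tumour 5. After GC correction, an alternative chosen after seeing the data, the counts of all breakpoints were 2, 2, 0, 1, 1 and 0 in tumours 1 to 6, against 0 in FEAT normal liver and 3 in wild-type liver. In tumour 1 the segments were then -0.22, -0.18 and -0.23, with 73.2% of probes called lost.

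The genes nearest to the breakpoints of tumours 1 and 5 were examined by name. In tumour 1 the steps lay 176 kb from Twist1, a transcription factor gene of mesoderm development, 748 kb from Sel1l, a gene of endoplasmic reticulum protein quality control, inside Galc, which encodes a lysosomal galactosylceramidase, and 208 kb from Tmem121, a membrane protein gene beside the immunoglobulin heavy chain locus. In tumour 5 they lay 7.54 kb from Cpsf2, a gene of mRNA 3' end processing, and 447 kb from Tmem121. The step nearest to Tmem121 recurred, with boundaries at chr12:110919102-110924013 in tumours 1 and 4 and at chr12:111152284-111169150 in tumours 2 and 5. Both places lie inside the immunoglobulin heavy chain locus (chr12:110718381-113782531). After GC correction none of these 4 arrays had a step there. Of the steps of tumours 1 and 5 named above, the one near Twist1 was found after GC correction and at a penalty factor of 4, and those at Sel1l, Galc, Cpsf2 and Tmem121 were found under neither. The wild-type liver also had a step near Cpsf2, between chr12:99521358 and chr12:99539946. Around Galc, the probes within 0.5 Mb stood at -0.24, 0.00, 0.02, -0.11, -0.13 and -0.04 in tumours 1 to 6, against 0.00 in FEAT normal liver and 0.02 in wild-type liver.

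Differences from the non-tumour profile were nearly equal along tumours 1 and 5. Over the 6 long segments found in tumour 1, that tumour lay between -0.24 and -0.20 from the mean of the non-tumour livers, and tumour 5 lay between -0.13 and -0.11 over the same 6 stretches. Tumour 4 ranged more widely, from -0.12 to 0.01. The lowest stretch of tumour 4 was chr12:101118100-110919102 at -0.18, where the FEAT normal liver stood at -0.04 and the wild-type liver at -0.03, and its level after GC correction was -0.13. It holds Dicer1, the Dlk1-Dio3 domain and Akt1.

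Segments under 3 Mb were called at 3 places, all of them gained. At Six6os1 (6 probes, chr12:70835763-70867308) the mean was 0.36, 0.32, 0.39, 0.93, 0.15 and 0.41 in tumours 1 to 6, against 0.39 in FEAT normal liver and 0.30 in wild-type liver. It was called in tumours 1 and 4 and lay above 0 in 8 of 8 arrays, so that the call did not separate tumours from non-tumour livers. These called probes made up 0.0594% of the chromosome in tumour 1 and 0.0492% in tumour 4, against 4.21% and 7.01% of all autosomal probes of those arrays in gained segments. Tumour 4 was the highest, and its 40 flanking probes stood at -0.06. An SE from the probe noise was 0.20 for the mean of 6 probes in tumour 4 and 0.09 in wild-type liver.

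Single probes of this group differed widely. Of the probes printed above, Six6os1 probe 3 stood at 0.58, 0.30, 0.94, 1.92, 0.04 and 0.43 in tumours 1 to 6, against 0.54 in FEAT normal liver and 0.62 in wild-type liver. Probe 4 stood at 0.37, 0.86, 0.99, 1.93, 0.16 and 0.84, against 0.38 and 0.04 in these non-tumour livers. Probe 5, next to it, stood at 0.17, 0.29, -0.52, 0.30, 0.09 and 0.22, against 0.21 and 0.28. Tumour 4 stood far above the other arrays at probes 3 and 4. It was also the highest at probe 2, at 1.02, against at most 0.67 on the other arrays. At probe 5 it was only just the highest, at 0.30 against 0.29 in tumour 2. At probes 1 and 6 it lay within the range of the other arrays.

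At Ncoa1 (5 probes, chr12:4185737-4216321) the mean was 0.17, 0.72, 0.60, 0.29, 0.11 and 0.18 in tumours 1 to 6, against 0.26 in FEAT normal liver and 0.35 in wild-type liver. The segment was called in tumour 2, in 5 probes or 0.0494% of the chromosome, against 0.0377% of all autosomal probes of that array in gained segments. Its probe 2 was above 0 in 8 of 8 arrays, at 0.97 in tumour 2, while probe 3 next to it was below 0 in 7 of 8, at -0.15 in tumour 2 and -0.87 in tumour 4. In the wild-type liver these 2 probes stood at 0.96 and 0.04. The pattern of neighbouring high and low probes was thus present on tumour and non-tumour arrays. The third segment, at the transcript AK135744 (6 probes, chr12:27178712-27250317), was called in wild-type liver and in no tumour. It held 0.0593% of the chromosome, against 0.0639% of all autosomal probes of the wild-type array in gained segments. Its mean was -0.21, 0.02, 0.27, 0.55, 0.18 and 0.43 in tumours 1 to 6, against 0.23 in FEAT normal liver and 0.52 in wild-type liver. One of the 6 probes, number 4, had no value in tumours 1 and 2 and held the repeated value in FEAT normal liver.

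**Figure D4:**
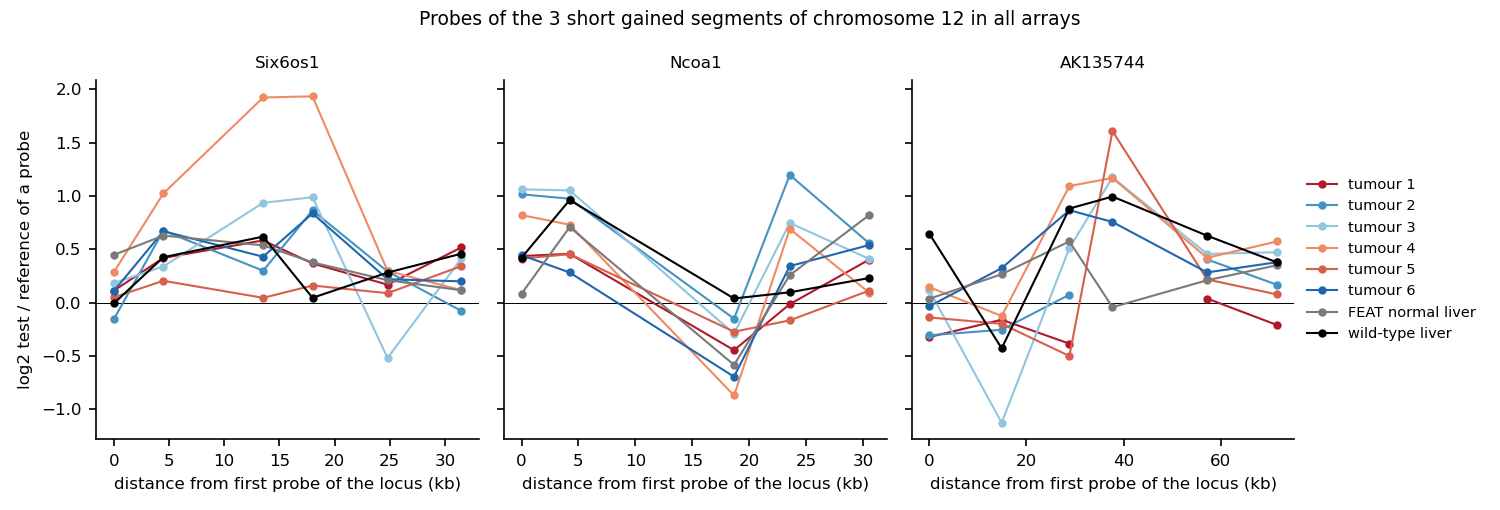
Log2 ratios of the single probes of the Six6os1, Ncoa1 and AK135744 segments against the distance from the first probe of each, one line per array, with gaps where a probe had no value. Neighbouring high and low probes appear in tumours and non-tumour livers alike, and tumour 4 reaches 1.93 at Six6os1, above all other arrays.

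Genes of 6 lists were read through the probes within 0.5 Mb of each, and 66 of 78 listed genes were found on the array. In tumour 1, 49 of the 66 lay in lost segments, against 362 of the 483 genes of the chromosome whose array name matched a current gene name (74.9%). In no other array did any of the 66 lie in one. All 66 were below 0 in tumour 1 and in tumour 5, and 31, 11, 57 and 40 were in tumours 2, 3, 4 and 6, against 32 in FEAT normal liver and 31 in wild-type liver. Over all 483 genes with a current name the counts were 483, 177, 65, 404, 483 and 248 in tumours 1 to 6, against 252 and 194 in these livers. Since neighbouring genes share probes and the chromosome, these counts describe where the genes lie and are no test of a list.

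Of the growth and cell cycle genes, 13 of 14 lay in lost segments of tumour 1. Mycn, which encodes a growth-promoting transcription factor of the Myc family (chr12:13000977-13001036 for its probe), stood at -0.18, 0.04, 0.07, -0.04, -0.06 and 0.02 in tumours 1 to 6, against 0.00 in FEAT normal liver and 0.06 in wild-type liver. Akt1, a kinase gene of insulin and growth signalling (chr12:110179406-110198087), stood at -0.29, -0.07, 0.01, -0.22, -0.17 and -0.02, against -0.05 and -0.05 in these non-tumour livers. In the probes within 0.5 Mb, tumours 1, 4 and 5 were below both non-tumour livers at both genes, as was tumour 2 at Akt1. The 4 probes inside Akt1 itself stood at -0.29, 0.09, 0.16, 0.18, 0.00 and 0.13 in tumours 1 to 6, against -0.08 in FEAT normal liver and -0.05 in wild-type liver. Only tumour 1 lay below both non-tumour livers in them. The 1 probe of Mycn stood at -0.36, -0.11, -0.07, -0.07, -0.19 and -0.33 in tumours 1 to 6, against -0.12 and -0.07 in these livers. The probes near Akt1 were the richest in GC of all listed genes, at 38.5%, and after GC correction tumours 1, 4 and 5 stood at -0.23, -0.09 and -0.11 there, against -0.02 and 0.00 in normal FEAT and wild-type livers. Hif1a, which encodes a subunit of the hypoxia-inducible transcription factor (chr12:71867976-71896844), stood at -0.22, 0.00, 0.03, -0.03, -0.11 and 0.04 in tumours 1 to 6, against 0.05 and 0.03.

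The highest of this list over tumours was Esr2, the gene of estrogen receptor beta, at -0.02 ± 0.13 (SD, n = 6). Esr2 (chr12:74080006-74135059) stood at -0.21, 0.04, 0.14, -0.03, -0.10 and 0.08 in tumours 1 to 6, against 0.09 in FEAT normal liver and 0.01 in wild-type liver. Tumours 1, 4 and 5 lay below both non-tumour livers in these probes within 0.5 Mb, and tumours 2, 3 and 6 did not. The 8 probes inside Esr2 itself stood at -0.34, -0.05, -0.09, -0.38, -0.18 and -0.19 in tumours 1 to 6, against 0.03 in FEAT normal liver and -0.08 in wild-type liver. In them, all tumours but tumour 2 lay below both non-tumour livers.

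Among the genes of genome maintenance, tumour suppression and silencing, 11 of 13 lay in lost segments of tumour 1. Dicer1, which encodes the RNase that cuts miRNA precursors (chr12:102186494-102245406), had the lowest tumour mean of the list, with -0.31, -0.07, -0.05, -0.26, -0.19 and -0.13 in tumours 1 to 6, against -0.12 in FEAT normal liver and -0.02 in wild-type liver. Its tumour mean was -0.17 ± 0.11 (SD, n = 6), and the FEAT normal liver lay lower than tumours 2 and 3, so that the groups overlapped. The 10 probes inside Dicer1 itself stood at -0.09, -0.02, 0.07, -0.16, -0.17 and -0.05 in tumours 1 to 6, against -0.01 and -0.03, higher than the neighbourhood in each tumour. Fancm, a DNA helicase gene of the Fanconi anaemia pathway (chr12:63017303-63069751), was the highest of the list at 0.00 ± 0.08. It stood at -0.13 in tumour 1 and -0.08 in tumour 5, against 0.01 in FEAT normal liver and 0.07 in wild-type liver.

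Of the liver and metabolism genes, 14 of 17 lay in lost segments of tumour 1. Apob, the gene of the main structural protein of very low density lipoprotein, was matched through 3 probes described as apolipoprotein B (chr12:7941988-7968821) and stood at -0.12, 0.03, 0.11, -0.03, -0.09 and 0.01 in tumours 1 to 6, against -0.01 in FEAT normal liver and 0.03 in wild-type liver. Lpin1, a phosphatidate phosphatase gene of lipid synthesis (chr12:16591619-16642818), was the lowest at -0.16 ± 0.11 (SD, n = 6). It stood at -0.31 in tumour 1, -0.26 in tumour 4 and -0.20 in tumour 5, against -0.09 in FEAT normal liver and -0.04 in wild-type liver. Foxa1, a forkhead transcription factor gene of liver development (chr12:55475915-55479732), was the highest at 0.03 ± 0.11, with -0.15 in tumour 1 and 0.11 in tumour 4, against 0.06 in both non-tumour livers. The 2 probes inside Foxa1 stood lower than its surroundings on all arrays, at -0.65 in tumour 1 and -0.25 in tumour 6, against -0.54 in FEAT normal liver and -0.15 in wild-type liver.

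The imprinted Dlk1-Dio3 domain, where genes are expressed from 1 parental copy, had 4 of 7 listed genes on the array, all of them in a lost segment of tumour 1. Dlk1, which encodes a Notch-related membrane protein of fetal liver (chr12:106975593-106981762), stood at -0.26, -0.01, -0.04, -0.20, -0.16 and -0.07 in tumours 1 to 6, against -0.06 in FEAT normal liver and -0.01 in wild-type liver. Dio3, which encodes a thyroid hormone-inactivating deiodinase, was the highest of the 4 at -0.09 ± 0.10 (SD, n = 6), and Dlk1 was the lowest at -0.13 ± 0.10. At Dlk1, tumours 1, 4, 5 and 6 lay below both non-tumour livers, and tumours 2 and 3 lay above the FEAT normal liver.

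The large genes had the highest median of the lists on every array but tumour 3. There it was 0.03, against 0.06 for the liver and metabolism genes. In tumour 6 the medians of these lists were both 0.00. In tumour 1 the median of the large genes was -0.19, against -0.23 over the 483 genes with a current name. Of the large genes, 4 of 14 lay in lost segments there. In tumour 5 the medians were -0.09 and -0.12, and in tumour 4 they were -0.02 and -0.07. The wild-type liver showed the same order, at 0.03 and 0.01. Dock4, a guanine nucleotide exchange factor gene, was the highest of this list at 0.02 ± 0.11 and Sntg2, a syntrophin gene, the lowest at -0.07 ± 0.09 (SD, n = 6 each). Of the genes beside the immunoglobulin heavy chain locus, 3 of 4 lay in a lost segment of tumour 1. Crip2, a LIM domain protein gene, stood at -0.10 ± 0.11 and Vipr2, a receptor gene for vasoactive intestinal peptide, at -0.04 ± 0.10 (SD, n = 6 each).

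**Figure D5:**
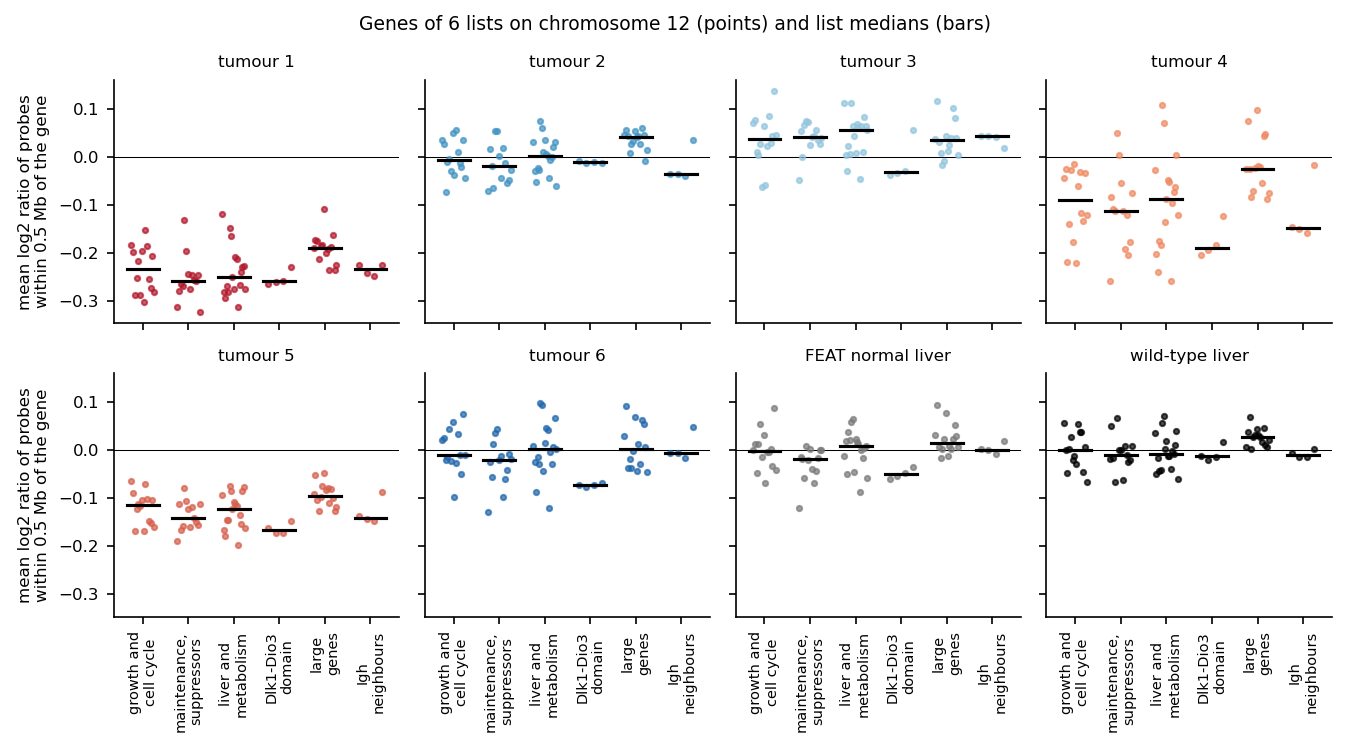
Mean log2 ratio of the probes within 0.5 Mb of each of 66 genes (points) with the median of each of 6 lists (black bars), one panel per array. In tumours 1 and 5 all 66 genes lie below 0, and the large genes are the highest list in tumour 1, with a median of -0.19.

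The immunoglobulin heavy chain locus, which B cells rearrange by deletion, was measured against its own flanks, a quantity that does not use the level of the chromosome. The locus lay between Tmem121 and Zfp386 with 275 probes over 3.06 Mb (chr12:110718381-113782531). The steps nearest to Tmem121 in tumours 1, 2, 4 and 5 fell inside it. Its mean minus that of 200 probes on each side was 0.08, 0.05, -0.05, 0.06, 0.03 and -0.04 in tumours 1 to 6, against 0.00 in FEAT normal liver and 0.03 in wild-type liver. The groups overlapped, with tumours on both sides of the non-tumour livers. The tumour mean was 0.02 ± 0.05 (SD, n = 6) and differed by 0.00 from that of the non-tumour livers (exact two-sided permutation test over 28 splits, p = 1, the smallest possible p being 0.0357), with 3 of 6 tumours above both of them. A lower level of the locus in tumours, relative to its flanks, was not detectable with 8 arrays.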

How the data were processed

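DNA of 8 samples was hybridised with a common reference on Agilent mouse 244A CGH arrays, and per the labels the sample carried Cy3 and the reference Cy5. The authors deposited 1 log2 ratio per spot for 235406 spots, made with Agilent Feature Extraction and CGH analytics 3.4, per the submitters' text. The file header of the wild-type array names version 9.1.3.1 of Feature Extraction and the protocol CGH-v4_91. That deposited scanner file also gave log10 ratios of red over green, processed intensity of each dye and flags for spots well above background. Its log10 ratios, turned to log2 with the sign reversed, differed from the deposited log2 values by one constant in 231977 of 231977 spots (within 0.001 of the median difference), so the deposited values run as sample over reference on that array. For the other 7 arrays the direction was taken from the labelled dyes.

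Spots of one probe were averaged, and each array was centred on the median of its 220065 autosomal probes, with no loess or quantile step. Noise was estimated from differences of neighbouring probes. For segmentation, values were limited to 3 noise SD around a running median of 5 probes and divided by penalised least squares (penalty factor 2, at least 5 probes), and a segment was called where its mean was at least 0.2 from 0. Level and evenness were described without a test. Tumours and non-tumour livers were compared with limma 3.58.1 (R 4.3.3) over chromosomes and 1 Mb bins, adjusted by Benjamini-Hochberg at 0.05, and by an exact permutation test at the Igh locus. The GC correction used GC content in 500 kb windows and of the probe, fitted on autosomes. Python 3.11.15, numpy 2.4.6, pandas 2.3.3, scipy 1.17.1, numba 0.67.0 and matplotlib 3.10.9 were used, and the scripts were tested on simulated data.

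Positions and gene names are those of the array, with the build not given in the sources used here. The RefSeq table of GRCm38.p6 served for current names only. Apob was matched through probe descriptions, and 2 names whose probes spread over more than 3 Mb were left out. Genes named with values were Dicer1, Akt1, Mycn, Apob, Dlk1 and Hif1a, the lowest and highest gene of each list over tumours, the genes nearest to breakpoints of tumours 1 and 5, and the genes of called segments under 3 Mb. One gene that this rule names is not reported here. The members and lists were chosen with earlier results of these data known. Alternatives covered the centring, the median, GC correction, penalty, segment length, threshold, window size, flank size and the omission of each tumour.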

Additional observations from a re-analysis of the deposited data

Results flagged for a closer look

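Among the 6 tumours, 25 measures of chromosome 12 were examined for 1 sample far from the others, and 2 had one. Chance alone gives about 1 in 20 such groups, or 1.25 of 25. The share of chromosome 12 probes in called segments was 60.0% in tumour 1, against a median of 0.0246% over the tumours. The chromosome was chosen for its low level in tumours 1 and 5, so this share restates that choice and is not to be read against the chance rate, and it depends on the calling threshold, since tumour 5 reached 93.4% at 0.1. The mean of the Six6os1 segment was 0.93 in tumour 4, against a tumour median of 0.38. Tumour 4 also had the highest probe noise, 0.49, and the part of noise in this value was not tested. The segment was defined by its gained calls in tumours 1 and 4 of these same arrays. A high value in tumour 4 is thus not to be read against the chance rate either.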

How the results depend on the processing

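The level of chromosome 12 moved by less than the SD between tumours in 48 of 48 alternatives, and ranged from -0.24 to -0.19 in tumour 1, -0.09 to 0.02 in tumour 4 and -0.13 to -0.07 in tumour 5. It ranged from 0.00 to 0.04 in tumour 2, -0.01 to 0.13 in tumour 3 and -0.04 to 0.00 in tumour 6. The largest move, close to that SD, was in tumour 3, from 0.04 to 0.13 with centring on the mode. The share of called probes in tumour 1 was 100% at a threshold of 0.1 and 0.0594% at 0.3, the latter all gained. In tumour 5 it was 93.4% at 0.1. No share over all autosomes is given at these thresholds. The number of breakpoints depended on the penalty. At a penalty factor of 1 it was 49, 26, 17, 19, 38 and 11 in tumours 1 to 6, against 13 in FEAT normal liver and 30 in wild-type liver. At a penalty factor of 4 it was 2 in tumours 1 and 2 and 1 in tumours 4 and 5, against 1 in wild-type liver. With GC-corrected values, chosen after seeing the data, it was 2 in tumours 1 and 2 and 1 in tumours 4 and 5. With at least 10 probes per segment it was 2 in wild-type liver. Evenness was 0.035 in tumour 3 and 0.075 in tumour 4 with windows of 2 Mb, and 0.037 in tumour 4 with GC-corrected values, chosen after seeing the data. Leaving out the repeated value, also chosen after seeing the data, moved no level, share or number of breakpoints past these limits. Leaving out each tumour in turn gave a difference over the chromosome of -0.08 to -0.03 (adjusted p = 0.736 to 0.909 in limma), and 0 bins called by limma, with 0 at an unadjusted p of 0.05 in these fits. At the Igh locus the difference from its flanks between tumours and non-tumour livers ranged from -0.0096 to 0.016 when a tumour was left out, with negative values without tumours 1, 2 and 4 (exact permutation p = 0.762 to 1). The cause of these changes was not tested. No paired analysis was possible because each non-tumour group has 1 array and shares only replicate number 1 with the tumours. With 1 array per non-tumour group, the spread among non-tumour livers rests on 2 animals of different genotype and age.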

Other observations

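Single probes far from the rest of chromosome 12 were few. At or below -2 there were 6, 0, 2, 2, 0 and 1 probes in tumours 1 to 6, against 7 in FEAT normal liver and 0 in wild-type liver, and over all autosomes 183, 2, 18, 21, 16 and 52, against 161 and 3 in these livers. The lowest were in tumour 1, at -7.19 for a probe with no gene name (chr12:84765979-84766038), -6.21 for one at the transcript AK035515 and -5.76 for one at AK002936, while the other arrays stood between -0.53 and 0.40 at the first. The highest was a probe of Wdr35, at 5.48 in tumour 4, with the other tumours between -0.52 and 0.17, against -0.25 in FEAT normal liver and 0.05 in wild-type liver. A probe of Btbd5 stood at -0.60, -0.48, -0.03, -1.02, -0.41 and -1.43 in tumours 1 to 6, against -2.13 in FEAT normal liver and 0.27 in wild-type liver, and was thus below 0 in 7 of 7 arrays of the FEAT line. No chromosome 12 probe lay at or below -0.8 in all 7 arrays of the FEAT line with a wild-type value above -0.3, against 16 autosomal probes. These probes were chosen after their values were seen.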
